A study of Mus musculus with 11 samples.

Results

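The genes described here are 9 members of a contractile and secretory programme shared by smooth muscle cells, fibroblasts and myoblasts: Acta2, Tagln, Cnn1, Cnn2, Myl9, Ctgf, Cyr61, Ankrd1 and Thbs1. They were chosen by name, as known targets of the transcription factor SRF or of the coactivator YAP. The choice was made with earlier results of these data known, so the shares of all genes set beside theirs are a description, not a test. They make up 9 of the 20368 gene symbols in the expression tables. All 9 were measured and all 9 passed the filter on low values (a mean of 1 FPKM or more, where FPKM is the number of fragments scaled to gene length and to library size). Acta2, Tagln, Cnn1, Cnn2 and Myl9 form the cytoskeletal group, and Ctgf, Cyr61, Ankrd1 and Thbs1 the secreted or YAP-linked group.

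The study used C2C12 cells, a mouse myoblast line of the C3H strain that fuses into myotubes when serum is withdrawn. It asked how RNAs transcribed from enhancers (eRNAs) act on muscle genes, and DRR stands for the distal regulatory region of Myod1, which gives rise to such an RNA. Cells were grown in medium with 10% fetal bovine serum and differentiated in medium with 2% horse serum, insulin, transferrin and selenium. All 4 polyA RNA libraries came from cells 4 h into differentiation. Of these, DRRi (RNA interference against the DRR eRNA) was paired with GFPi (the GFP control), and pHAN_DRR1.2 (expression of a DRR RNA from the pHAN vector) with pHAN_GFP (the GFP control vector). Chromatin immunoprecipitation (ChIP) gave peak lists for MyoD and for H3K4me1 in proliferating myoblasts (MB) and in myotubes after 48 h of differentiation (MT), and a list for MyoG in those myotubes. Each group held 1 library, so no value had a replicate and no p-value was computed, and differences are given beside the share of all genes that differed as much. The targeted RNA is not a coding sequence and was not analysed here, so the labels could not be checked on it.

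SRF binds a short DNA element called the CArG box and drives actin and contractile genes when its cofactors of the MRTF (Mkl1 and Mkl2) or myocardin family are in the nucleus, a step controlled by the pool of free actin. YAP and its paralog TAZ (Wwtr1) bind TEAD factors at promoters and enhancers, and the Hippo kinases Lats1 and Lats2 keep them in the cytoplasm. Both routes respond to adhesion and cytoskeletal tension, and several genes, Ctgf and Cyr61 among them, are targets of both. In skeletal muscle, smooth muscle actin and calponins are present in proliferating myoblasts and give way to sarcomeric genes in differentiation.

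The promoters of 6 members had an entry in the RefSeq table (GRCm38.p6). Of these, 5 held 1 or more of the motifs searched for in the 250 bases before the transcription start. Those 5 are shown. MyoD and MyoG peaks described further on lay over the starts of Acta2 and Ankrd1. For Cnn2, Myl9 and Cyr61 the nearest peak was centred 1.30, 2.09 and 1.52 kb from the start. Tagln, Ctgf and Thbs1 had no entry. Each is written 5′ to 3′ on the gene's own strand. Capitals mark the CArG box, named for its letters, with 6 weakly paired bases in its middle. The same box with a strongly paired base at 1 of these 6 is marked too. So are the TEAD motif CATTCC, which reads GGAATG when it lies on the opposite strand, and CAGCTG, a form of the E-box that MyoD and MyoG bind. Other E-box forms, such as the letters cacctg in the Ankrd1 window, were not searched or marked.
Acta2 (chr19:34255374-34255623, minus strand): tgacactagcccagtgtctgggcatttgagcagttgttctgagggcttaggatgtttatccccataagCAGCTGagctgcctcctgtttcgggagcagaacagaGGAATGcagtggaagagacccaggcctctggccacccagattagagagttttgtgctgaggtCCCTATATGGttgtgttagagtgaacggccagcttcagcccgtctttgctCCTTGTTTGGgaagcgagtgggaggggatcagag
Cnn2 (chr10:79988350-79988599, plus strand): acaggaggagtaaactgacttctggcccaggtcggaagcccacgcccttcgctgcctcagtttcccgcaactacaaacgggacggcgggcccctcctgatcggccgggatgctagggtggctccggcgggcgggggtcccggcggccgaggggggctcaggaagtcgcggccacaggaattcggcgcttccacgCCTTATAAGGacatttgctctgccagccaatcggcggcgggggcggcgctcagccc
Myl9 (chr2:156775214-156775463, plus strand): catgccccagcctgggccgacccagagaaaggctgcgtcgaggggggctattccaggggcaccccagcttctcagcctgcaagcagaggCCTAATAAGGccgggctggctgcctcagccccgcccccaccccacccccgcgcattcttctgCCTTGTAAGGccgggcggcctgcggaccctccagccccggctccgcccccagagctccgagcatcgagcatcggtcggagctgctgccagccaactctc
Cyr61 (chr3:145649986-145650235, minus strand): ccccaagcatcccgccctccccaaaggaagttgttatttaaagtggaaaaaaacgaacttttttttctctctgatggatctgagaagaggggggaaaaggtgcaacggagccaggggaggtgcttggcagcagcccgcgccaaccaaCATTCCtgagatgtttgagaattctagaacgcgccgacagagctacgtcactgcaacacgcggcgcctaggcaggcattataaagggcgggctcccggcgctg
Ankrd1 (chr19:36119845-36120094, minus strand): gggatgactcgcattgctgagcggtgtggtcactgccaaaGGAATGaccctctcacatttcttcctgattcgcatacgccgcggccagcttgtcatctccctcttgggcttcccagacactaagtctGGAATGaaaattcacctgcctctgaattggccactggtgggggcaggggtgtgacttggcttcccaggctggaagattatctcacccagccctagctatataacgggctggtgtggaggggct

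Of the 6 promoters with an entry, Acta2, Cnn2 and Myl9 carried CArG-type letters, and Acta2, Cyr61 and Ankrd1 carried TEAD letters. The promoters shown are those that held a searched motif. Cnn1, the other cytoskeletal entry, held none, so this division rests on few genes. A full CArG box stood in Cnn2 (CCTTATAAGG, 56 to 47 bases before the start) and in Myl9 (CCTAATAAGG, 161 to 152 bases before the start), and 1.47% of 32851 promoters of the same length held such a box. With 1 substitution allowed, Acta2 had a pair (CCCTATATGG at 84 to 75 and CCTTGTTTGG at 34 to 25 bases before the start), Myl9 had another (CCTTGTAAGG at 99 to 90), and the share of all promoters was 8.59%. The TEAD motif stood once in Acta2 and once in Cyr61, at 146 and 103 bases before the start, and at 210 and 123 bases before the start of Ankrd1. It was present in 12.6% of promoters, and 2 or more copies in 1.02%. The CAGCTG form of the E-box began 182 bases before the start of Acta2, and 13.0% of promoters held this form 1 or more times. Both strands were searched, no marked motifs overlapped, and the Cnn1 window (chr9:22099003-22099252, plus strand) held none of these letters. A match in these letters is a description of the sequence, not evidence of a bound site.

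The depth of the libraries is unknown. The commonest ratio of low FPKM values between the 2 libraries was 0.998 in the DRRi table and 0.988 in the pHAN_DRR1.2 table, held by 238 of 1536 and 305 of 1638 low genes, which is the only measure of their relative depth. Skeletal myoblast markers were all 6 present (summed level 418 FPKM in DRRi, 492 in GFPi, 1003 in pHAN_DRR1.2 and 845 in pHAN_GFP). Of the 6, 1 was above control in DRRi, against 53.5% of all genes. Chrna1 was the 1 that was 1.5-fold or more lower in DRRi (34.6 FPKM against 60.2 FPKM), against 3.5% of all genes. Myod1, the gene the DRR belongs to, had 33.1 FPKM in DRRi, 37.7 in GFPi, 65.6 in pHAN_DRR1.2 and 68.9 in pHAN_GFP. Of 7 markers of smooth muscle and pericytes 4 were measurable, with summed levels of 97.0, 76.6, 248 and 289 FPKM in the same order of libraries, while the defining genes Myh11, Myocd and Rgs5 were at or below 0.0569 FPKM in every library. The 4 measurable ones, Lmod1, Actg2 (the largest part of each sum), Cspg4 and Pdgfrb, were all above control in DRRi, against 53.5% of all genes. Their part in the members' result was not tested. Fibroblast markers summed to 160.5, 237, 406 and 455 FPKM, nearly all of it Col3a1 (the one called changed in the authors' deposited table was Dcn, with 7.78 FPKM in pHAN_DRR1.2 against 3.02 FPKM in pHAN_GFP), and endothelial markers to 0.120 FPKM or less. Blood markers summed to 1.60 to 2.52 FPKM, nearly all of it Cd68. In bulk RNA, fewer cells of a type and less RNA per cell cannot be told apart.

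All 9 members stood higher in DRRi than in GFPi, and Ctgf and Tagln stood furthest above control. A log2 change above 0 was found in 9 of 9 members against 53.5% of the 10577 genes kept, on the log2(FPKM + 1) scale used throughout, which understates the change of low genes. A difference of 1.5-fold or more upward was found in 6 of 9 members (Ctgf, Tagln, Thbs1, Ankrd1, Cnn1 and Cyr61) against 4.66% of all genes, and downward in 0 of 9 against 3.5%. At 2-fold or more upward there were 2, Ctgf and Tagln, against 0.898%, and downward 0 against 0.804%. The median log2 difference of the 9 was 0.69, beside 0.02 for all genes. It was 0.42 for the 5 cytoskeletal members, of which 2 passed 1.5-fold, and 0.83 for the 4 secreted or YAP-linked members, of which all 4 passed.

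Among the secreted members, Ctgf encodes connective tissue growth factor, a matricellular protein that is a standard YAP target. Its level was 8.24 FPKM in DRRi and 2.70 FPKM in GFPi, a ratio of 3.05 and a log2 difference of 1.32, above 99.6% of genes. In the authors' deposited table its q was 0.0229, which made it the only member called changed there, against 0.643% of genes called higher. Thbs1, the matrix glycoprotein thrombospondin-1, was far more abundant, with 358 FPKM in DRRi against 185 FPKM in GFPi. Its log2 difference was 0.95 and its q in the authors' deposited table was 0.198. Cyr61, the close relative of Ctgf, had 108 FPKM against 71.2 FPKM, a log2 difference of 0.59 that is only just past the 1.5-fold line at 0.58. It was 0.57 once all changes were centred on the median gene, under that line. Its q in the authors' deposited table was 0.593. Ankrd1 encodes a nuclear and sarcomeric ankyrin-repeat protein of stretched muscle and is a YAP target in many cells. Its level was 171 FPKM against 104 FPKM, a log2 difference of 0.71 and q = 0.332 in the authors' deposited table.

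The cytoskeletal members spanned log2 differences from 0.21 to 1.06. Tagln encodes transgelin (SM22), an actin-binding protein of smooth muscle, and was at 51.9 FPKM in DRRi and 24.5 FPKM in GFPi. That is a log2 difference of 1.06, above 99.3% of genes, and the authors' deposited table gave it q = 0.462. Cnn1, the smooth muscle calponin, was the least abundant member at 2.89 FPKM against 1.41 FPKM (log2 difference 0.69, q = 0.692 in the authors' deposited table). The ratio of its deposited values was 2.05, past 2-fold, which the log2(FPKM + 1) scale does not show. The 3 abundant members of this group moved least. Acta2, smooth muscle alpha-actin, had 637 FPKM in DRRi against 475 FPKM in GFPi, a log2 difference of 0.42. Cnn2, the broadly expressed calponin, had 211 FPKM against 183 FPKM, and Myl9, a myosin regulatory light chain, 156 FPKM against 135 FPKM, each with a log2 difference of 0.21. For all 3 the authors' deposited table gave q = 1.00, and Cnn2 and Myl9 stood at about the 75.0th percentile of all changes. The plot of levels in the 4 libraries shows these values.

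**Figure D1:**
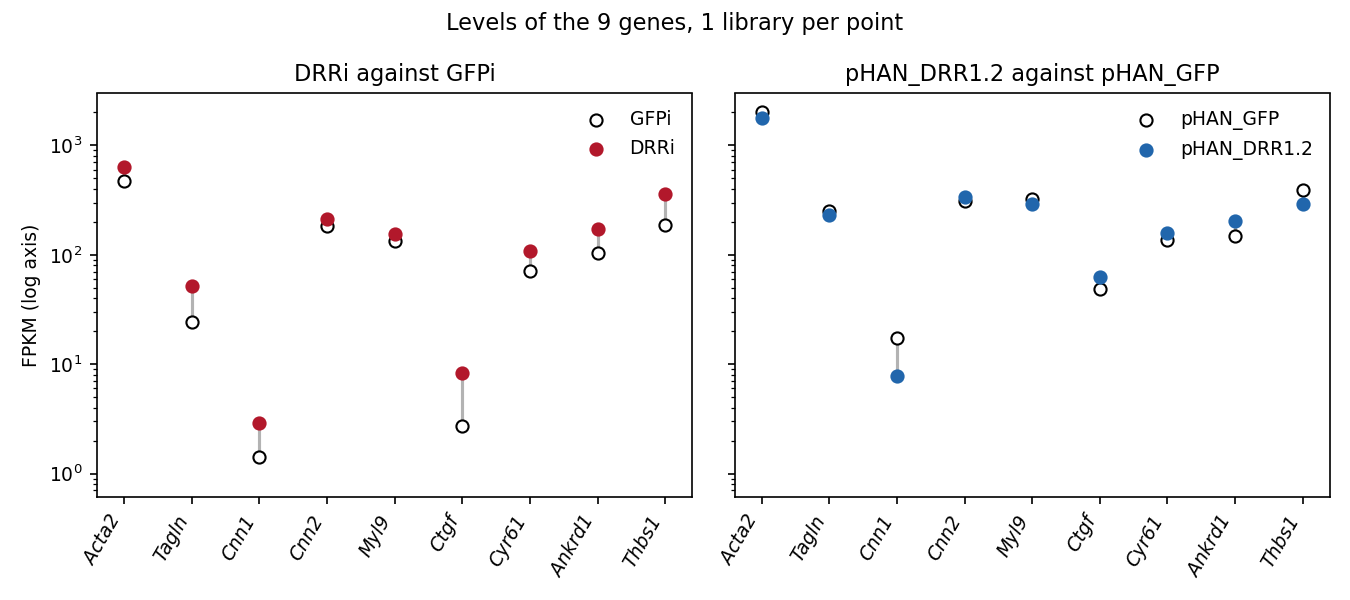
FPKM (log axis) of the 9 members in the 4 polyA RNA libraries, 1 point per library with no replicates, DRRi and GFPi beside pHAN_DRR1.2 and pHAN_GFP. Every member lies higher in DRRi than in GFPi, Ctgf by the widest margin (8.24 against 2.70 FPKM), while in the pHAN pair only Cnn1 is separated by more than 1.5-fold (7.76 against 17.3 FPKM).

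In cells given the DRR1.2 construct the members did not move together, and Cnn1 was the single member with a large difference. Against pHAN_GFP, 4 members were above 0 (Ankrd1, Ctgf, Cyr61 and Cnn2) where 55.6% of the 10699 genes kept were above 0, and the other 5 were below. None was 1.5-fold or more higher, against 1.38% of genes (0.318% at 2-fold, and 1.03% by the q of the authors' deposited table), and 1 was 1.5-fold or more lower, against 0.654%. The median log2 difference was -0.13 over the 9 members, -0.16 over the cytoskeletal group and 0.30 over the secreted or YAP-linked group, beside 0.02 for all genes.

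Cnn1 was at 7.76 FPKM in pHAN_DRR1.2 and 17.3 FPKM in pHAN_GFP, 2.23-fold lower. Its log2 difference was -1.06, a size reached downward (2-fold or more) by 0.0841% of genes, and its q in the authors' deposited table was 0.000241, where 0.589% of genes were called lower. The other cytoskeletal members were near control. Acta2 had 1791 FPKM against 2024 FPKM (log2 difference -0.18), Tagln 229 FPKM against 251 FPKM (-0.13), Myl9 289 FPKM against 323 FPKM (-0.16) and Cnn2 337 FPKM against 309 FPKM (0.12). The secreted or YAP-linked members divided. Ankrd1 had 205 FPKM against 148 FPKM (log2 difference 0.47), Ctgf 62.7 FPKM against 48.6 FPKM (0.36) and Cyr61 159.7 FPKM against 136 FPKM (0.23), whereas Thbs1 had 293 FPKM against 393 FPKM (-0.42). For these 4 members the lowest q in the authors' deposited table was 0.282, for Ankrd1.

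Set side by side, the pairs placed Cnn1 apart from the other members. It was 1 of 8 genes, among 10398 kept in both tables (0.0769%), that were 1.5-fold or more higher in DRRi than in GFPi and 1.5-fold or more lower in pHAN_DRR1.2 than in pHAN_GFP. With a filter at a mean of 5 FPKM, Cnn1 was no longer kept in the DRRi table, where 5 of the 8 members left were then 1.5-fold or more higher. Acta2, Tagln, Myl9 and Thbs1 had the same pair of signs with a smaller downward difference. Ctgf, Cyr61, Ankrd1 and Cnn2 were above control in both pairs. The plot of both log2 differences sets each member against all other genes.

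**Figure D2:**
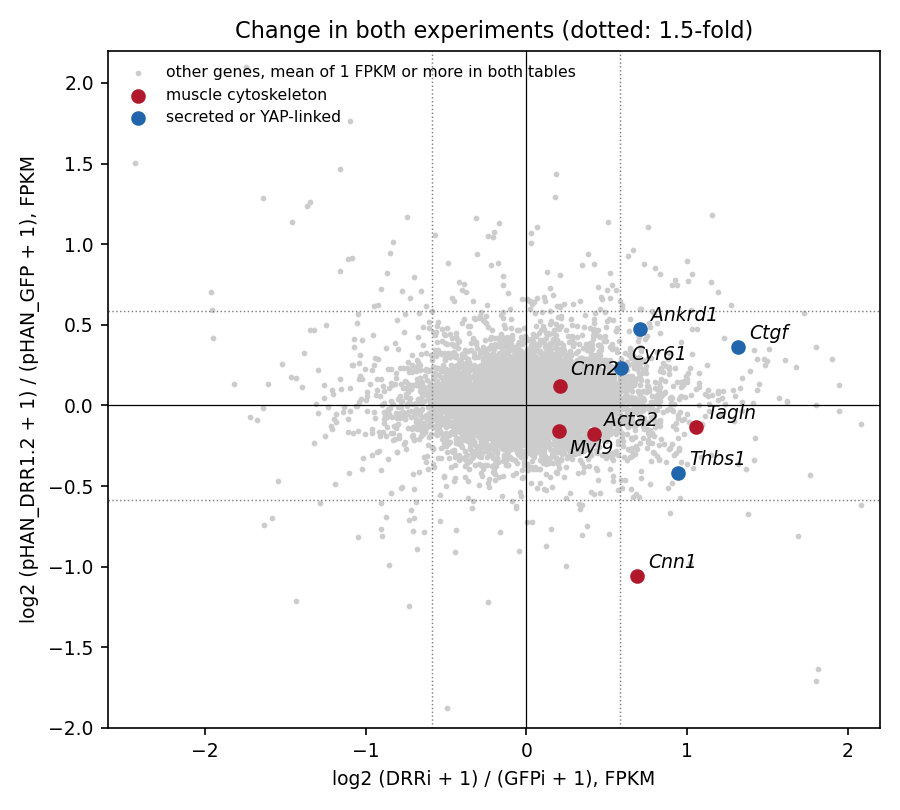
Log2 difference of FPKM + 1 in DRRi against GFPi (x axis) and in pHAN_DRR1.2 against pHAN_GFP (y axis), with other genes in grey and the members coloured by group; 1 other gene lies outside the axes. All 9 members lie to the right of 0, and Cnn1 at -1.06 on the y axis lies well below the rest.

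The genes whose pair of log2 differences lay nearest to the median point of each group were also listed, over 7920 genes with 5 FPKM or more in both tables. For the cytoskeletal group (0.42 and -0.16) these were Ssbp2, Dus4l and Prkca, at distances of 0.0100, 0.0104 and 0.0152 on the log2 scale. For the secreted or YAP-linked group (0.83 and 0.30) they were Rap2b, Dok1 and Tnfsf9, at 0.0373, 0.0376 and 0.0509. Likeness here rests on only 2 differences per gene.

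The control levels of the members differed widely between the experiments. The tables were normalized separately and the cells carried different agents, so the GFPi and pHAN_GFP levels are set side by side as a description. Ctgf was at 2.70 FPKM in GFPi and 48.6 FPKM in pHAN_GFP, a ratio of 18.0 that exceeded 99.99% of genes. Cnn1 (1.41 and 17.3 FPKM), Tagln (24.5 and 251 FPKM) and Acta2 (475 and 2024 FPKM) had ratios of 12.3, 10.3 and 4.26. These 4 include 3 of the 5 cytoskeletal members and 1 secreted one. The ratios of the others ran from 1.42 for Ankrd1 to 2.40 for Myl9. Of the 9 members 8, all but Ankrd1, were 1.5-fold or more higher in pHAN_GFP, against 9.3% of 10658 genes, and 6 were 2-fold or more higher, against 3.69%. The median log2 difference of the 9 was 1.26 beside -0.04 for all genes. Differences of this size between the controls exceeded those within each pair for every member except Ankrd1. Other genes of the lists were higher in pHAN_GFP as well, among them 16 of 25 kept SRF targets and 6 of 18 YAP and TEAD targets other than the members. The markers of smooth muscle and pericytes were higher too (289 FPKM summed, against 76.6 FPKM in GFPi). Most of that sum was Actg2 (205 FPKM against 41.1 FPKM), which is also in the list of SRF targets. Of 6 skeletal myoblast markers, 4 were 1.5-fold or more higher and 1, Myf5, was lower (8.75 FPKM against 15.1 FPKM). The part of these markers in the members' levels was not tested. For Ctgf, the 8.24 FPKM reached in DRRi was still below the 48.6 FPKM of the other control.

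**Figure D3:**
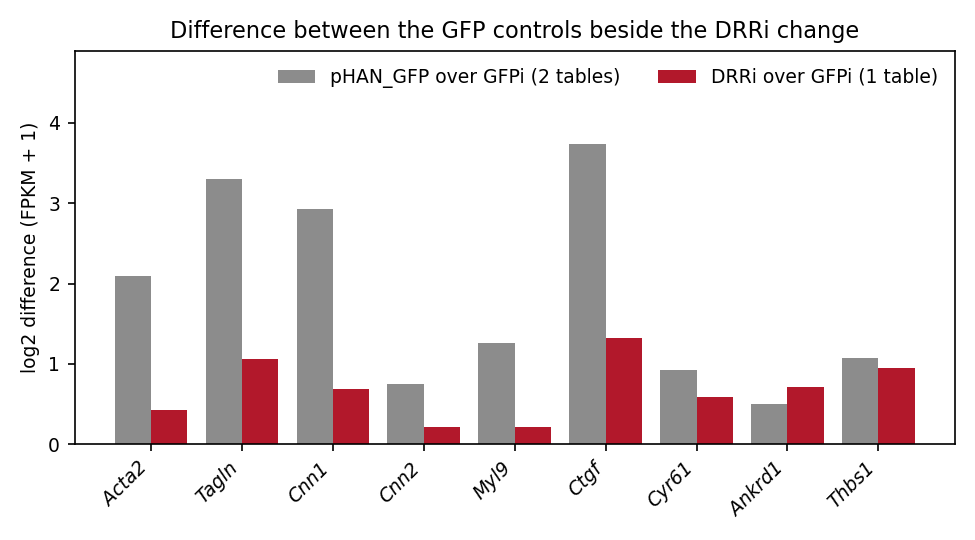
Log2 difference of FPKM + 1 between the control libraries pHAN_GFP and GFPi for the 9 members (grey bars, across 2 tables normalized separately) beside that of DRRi over GFPi (red bars), 1 library per condition. The grey bar of Ctgf is the tallest at 3.74, and Ankrd1 is the member whose red bar (0.71) exceeds its grey one (0.50).

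The wider lists showed where other genes of these pathways stood. Their counts past 1.5-fold are to be read against 4.66% of all genes higher and 3.5% lower in DRRi, and 1.38% and 0.654% in pHAN_DRR1.2. Of 25 kept SRF targets other than the members, 2 were 1.5-fold or more higher in DRRi, Fhl1 (62.3 FPKM against 37.5 FPKM, log2 difference 0.72) and Actn1 (154 FPKM against 102 FPKM, 0.60), which encode a LIM-domain protein and an actin crosslinker. One of the 25, Cald1, which encodes the actin-binding protein caldesmon, was lower (116 FPKM against 212 FPKM, -0.86), and their median was 0.04, beside 0.02 for all genes. Srf itself had 33.1 FPKM against 25.4 FPKM (0.37). In pHAN_DRR1.2, 1 of 26 SRF targets passed upward, the small heat shock protein gene Hspb1 (307 FPKM against 198 FPKM, 0.63, q = 0.0259 in the authors' deposited table), and 0 of 26 downward.

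Of 18 kept YAP and TEAD targets other than the members, 14 were above 0 in DRRi (53.5% of all genes), 4 were 1.5-fold or more higher (4.66%) and 1 was lower (3.5%), with a median log2 difference of 0.26. The 4 were Lats2, a Hippo kinase that is itself a YAP target (18.7 FPKM against 7.99 FPKM, 1.13, q = 0.0217 in the authors' deposited table), Crim1 (8.83 FPKM against 4.09 FPKM, 0.95), the tissue factor gene F3 (18.9 FPKM against 9.76 FPKM, 0.89) and Tgfb2 (10.2 FPKM against 6.40 FPKM, 0.60). The gene that was lower was Igfbp3, an insulin-like growth factor binding protein, at 4.38 FPKM against 15.1 FPKM (-1.58, q = 0.00103 in the authors' deposited table). In pHAN_DRR1.2, 0 of 19 such genes passed upward (1.38% of all genes) and Igfbp3 again passed downward (7.06 FPKM against 12.1 FPKM, -0.70).

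Hippo pathway genes and TEAD factors contributed 2 of 21 that were higher in DRRi (4.66% of all genes), Lats2 and Tead2 (31.0 FPKM against 18.2 FPKM, log2 difference 0.74), and 0 that were lower. Yap1 had 40.2 FPKM against 27.4 FPKM (0.54), short of the 1.5-fold line, and Wwtr1 31.0 FPKM against 30.4 FPKM. In pHAN_DRR1.2, Vgll2, a muscle TEAD cofactor, was 1 of 22 that passed upward, against 1.38% of all genes (6.77 FPKM against 2.47 FPKM, 1.16, q = 0.00292 in the authors' deposited table). Fat4, an atypical cadherin upstream of Hippo, was called lower in the authors' deposited table (0.838 FPKM against 1.61 FPKM, q = 0.0100). Of 15 TGF-beta signalling genes only Tgfb2 passed in DRRi, where 4.66% of all genes passed upward and 3.5% downward, and none passed in pHAN_DRR1.2.

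Of 12 kept paralogs of the members, 7 were above 0 in DRRi (53.5% of all genes) and 1 was 1.5-fold or more higher (4.66%), Thbs2 (6.71 FPKM against 3.74 FPKM, log2 difference 0.70), and of 14 in pHAN_DRR1.2 1 was lower (0.654% of all genes), the Ctgf relative Wisp2 (0.886 FPKM against 1.93 FPKM, -0.64). The actin genes are nearly identical in coding sequence, so how fragments were divided among them is uncertain. Actg2, the other smooth muscle actin, had 53.4 FPKM against 41.1 FPKM in the DRRi pair and 173 FPKM against 205 FPKM in the pHAN pair, the same signs as Acta2. Acta1, skeletal alpha-actin, had 17.3 FPKM against 18.5 FPKM and 98.7 FPKM against 70.6 FPKM, the opposite signs.

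MyoD, the factor that commits cells to the muscle lineage, had peaks within 30 kb of nearly all members, and MyoG, which acts during differentiation, within 30 kb of all. Distances were measured from the mm9 locus spanned by each gene's coding sequences. For Tagln this locus was a 72.4 kb stretch shared with Pcsk7 and Rnf214, and its peaks enter the counts given here. In myoblasts 8 of 9 members had a MyoD peak, all but Ctgf, against 48.6% of all 20325 loci and 61% of loci kept in the DRRi table. In myotubes 9 of 9 had a MyoD peak (68.9% and 86.5%) and 9 of 9 a MyoG peak (66.2% and 83.6%), shares that most expressed loci also reach. The lists held 17 myoblast MyoD, 30 myotube MyoD and 38 myotube MyoG peaks near the members. More MyoD peaks in myotubes than in myoblasts were found at 6 of 9 members, against 58.1% of loci, and fewer at 1, Thbs1, against 4.91%. The myotube MyoD list is longer as a whole, with 39700 peaks against 18141.

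**Figure D4:**
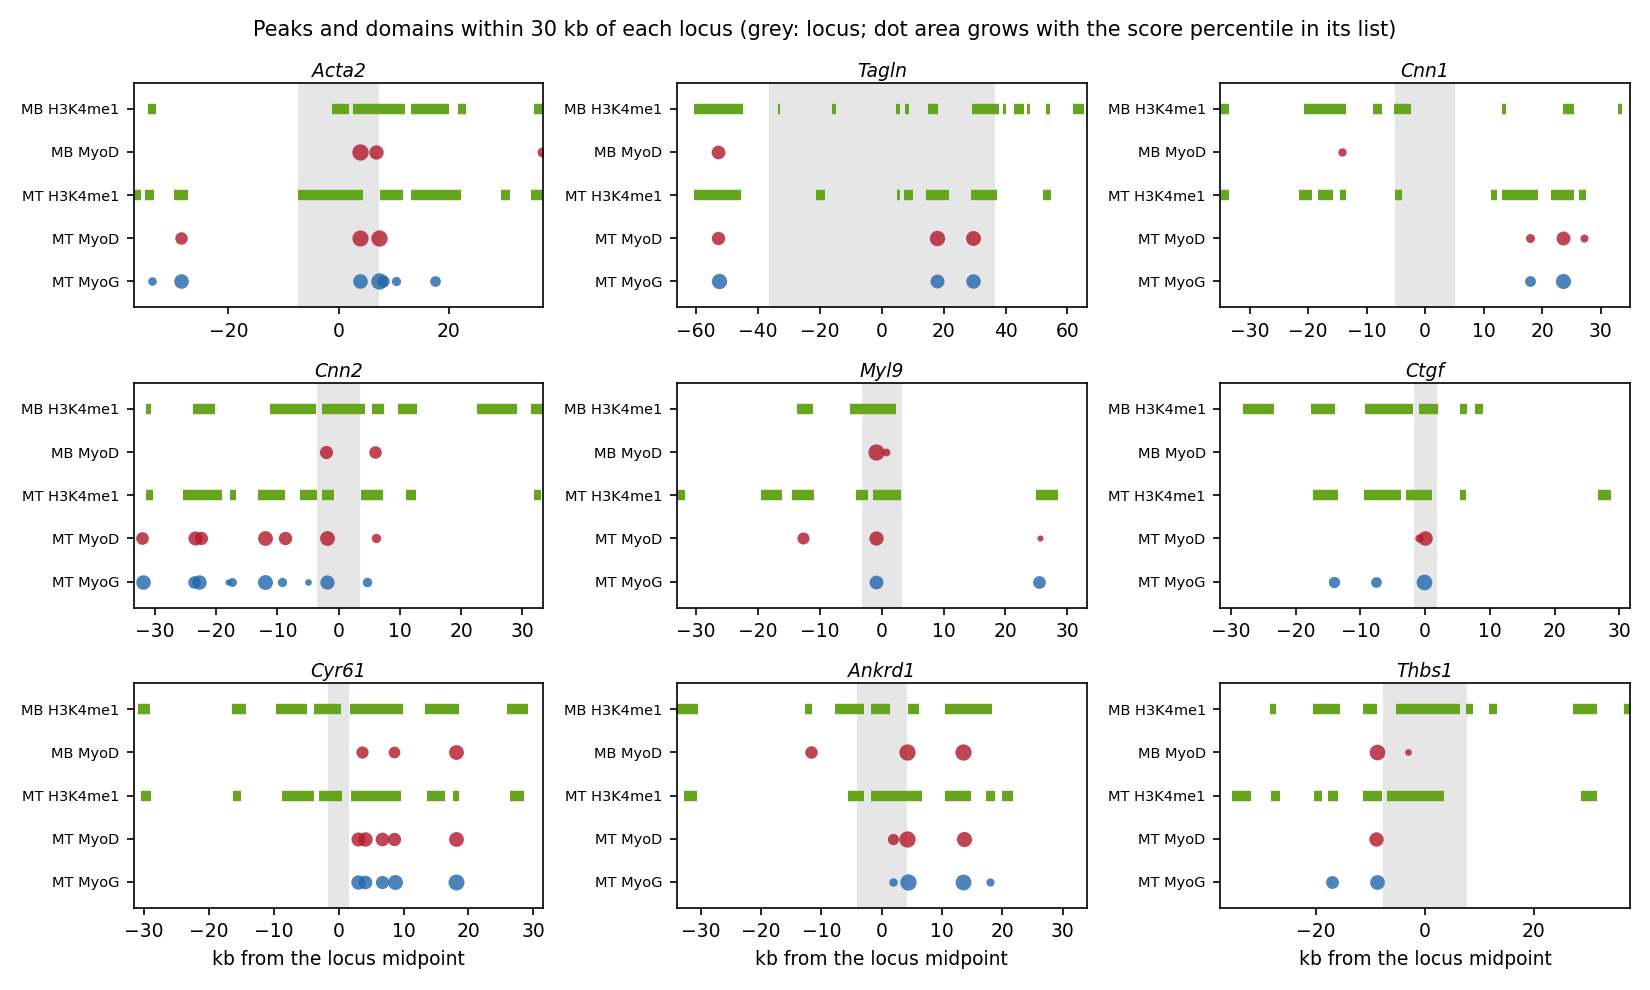
Peaks of MyoD (red) and MyoG (blue) and domains of H3K4me1 (green bars) around each member in myoblasts (MB) and myotubes (MT), by distance in kb from the midpoint of its locus (grey band), with dot area growing with the score percentile in the list. Acta2, Cnn2, Myl9 and Ankrd1 carry peaks over the locus in all 3 MyoD and MyoG lists, and Ctgf has no myoblast MyoD peak.

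Overlap of 1 base or more between lists showed how many sites were held in common. Of the 17 myoblast MyoD peaks near members, 12 (70.6%) overlapped a myotube MyoD peak, against 73.9% of the whole myoblast list. Of the 30 myotube MyoD peaks, 13 (43.3%) overlapped a myoblast peak, against 34.1% of the whole list, which left 17 without a myoblast counterpart. MyoG overlapped 27 of those 30 (90%) where it overlapped 66.9% of the whole myotube MyoD list, and 27 of the 38 MyoG peaks (71.1%) overlapped myotube MyoD, against 77.6% of the whole MyoG list. Nearly all lay in H3K4me1 domains of the same stage, 17 of 17 MyoD peaks in myoblasts (86.7% of the list) and 29 of 30 in myotubes (85.0%). Of the 30 myotube peaks, 23 (76.7%) lay where H3K4me1 was already present in myoblasts, against 61.6% of the list. The peaks share neighbourhoods and are not independent, so these shares are descriptions.

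At Acta2 (chromosome 19, 34315580 to 34329826) the strongest sites stood at the start of the gene and inside it. In myoblasts a MyoD peak centred 3.14 kb inside the gene had the authors' score of 2253.69, above 98.0% of that list, and the peak over the start had 347.68, above 72.2%. In myotubes the order within the list was the other way round, with 1586.02 inside the gene (94.4%) and 2417.65 over the start (97.5%). MyoG followed the myotube order, with 292.54 inside (75.7%) and 1562.77 over the start (98.5%). Scores are the authors' own values per peak, and ranks in lists of different length are not a measure of change. The start of Acta2 is the end of the promoter shown above with the E-box, the TEAD motif and the pair of CArG-type elements. Peaks are on mm9 and the promoter on GRCm38.p6, so peak edges were not placed on its bases.

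Ankrd1 (chromosome 19, 36186454 to 36194334) had a peak over its start in every list, with scores of 1847.78 for myoblast MyoD, 2030.14 for myotube MyoD and 1133.84 for MyoG, above 96.8%, 96.4% and 96.8% of each list. Its promoter is the one with TEAD letters at 2 places. Another site about 9.6 kb upstream was also in all 3 lists, with scores of 1691.68, 618.66 and 634.09 (above 96.0%, 81.8% and 90.8%). In myoblasts the 2 sites ranked almost equally, and in myotubes the start ranked higher.

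Myl9 (chromosome 2, 156601199 to 156607393) had its main site about 2.1 kb inside the gene, downstream of the pair of CArG-type elements. It scored 1844.10 in the myoblast MyoD list (above 96.7%), 364.48 in the myotube list (71.1%) and 204.92 for MyoG (65.4%). Cnn2 (chromosome 10, 79451344 to 79458145) had an internal site about 1.4 kb from the start in all 3 lists, with scores of 207.21, 499.22 and 240.59 (above 58.2%, 77.8% and 70.3%). Its window held the most peaks of any member, 7 of myotube MyoD and 10 of MyoG, but 6 of those 7 and 7 of those 10 lay over other genes of this dense region, Wdr18, Grin3b and Abca7 among them.

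Cnn1 (chromosome 9, 21903696 to 21913665) had the lowest top MyoD score of any member with a peak, at both stages. Its myoblast MyoD peak, with a gap of 8.90 kb to the locus, scored 76.09 (above 14.9%) and had no counterpart in myotubes. The best myotube peak, 18.3 kb away, scored 308.40 (66.9%) for MyoD and 372.47 (81.3%) for MyoG and lay over the neighbouring gene Acp5. No MyoD or MyoG peak lay inside Cnn1. Tagln (chromosome 9, 45671773 to 45744141 as the table gives it) shares its stretch with Pcsk7 and Rnf214, so none of its peaks can be assigned to it alone. RefSeq gives the gene a length of 6.43 kb where this stretch spans 72.4 kb. The highest-scoring peaks within it had 746.93 for myotube MyoD (above 84.9%) and 266.28 for MyoG (73.2%). The 1 myoblast MyoD peak, 16.2 kb away over Bace1 (261.07), was also found in both myotube lists.

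Among the secreted members, Cyr61 (chromosome 3, 145309934 to 145312949) had no other gene within 30 kb and a row of upstream sites. Its 3 myoblast MyoD sites, at about 2.08, 7.09 and 16.6 kb upstream, were all present in myotubes, and a further myotube site stood 5.18 kb upstream. The site at 16.6 kb scored highest in each list, with 457.51, 488.62 and 735.65 for myoblast MyoD, myotube MyoD and MyoG (above 77.9%, 77.4% and 92.7%). Ctgf (chromosome 10, 24315247 to 24318488), also without a neighbour in the window, had no myoblast MyoD peak. In myotubes it had a pair of MyoD peaks inside the gene (scores 427.27 and 76.70) under a single MyoG peak of 541.48, above 88.4% of that list. Thbs1 (chromosome 2, 117937657 to 117952869) likewise had no neighbour, and its main site lay just below the lower end of the locus. That site had a gap of 0.308 kb in myoblasts and scored 851.48 for myoblast MyoD (above 88.7%), 378.61 for myotube MyoD (72.0%) and 301.31 for MyoG (76.4%). A weak myoblast peak inside Thbs1 (63.95) had no counterpart in myotubes.

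H3K4me1, the histone mark of enhancers and promoter flanks, was found near all 9 members at both stages, as it was near 79.6% of all loci in myoblasts and 77.6% in myotubes, and near 97.6% and 96.6% of loci kept in the DRRi table. Domains covered a median of 32.9% of the members' windows (locus plus 30 kb on each side) in myoblasts and 30.9% in myotubes, beside 16.2% and 18.3% over loci kept in the DRRi table. Covered length was greater in myotubes at 3 of 9 members, against 44.7% of all loci and 56.3% of loci kept in the DRRi table. It was smaller at 6 of 9, against 35.7% of all loci. Summed over the members it was 226 kb and 226 kb, a ratio of 0.999, while over all loci the ratio was 1.15. The members' sums include 41.8 kb and 40.6 kb from the Tagln window, whose locus is shared with Pcsk7 and Rnf214.

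The 3 members with more cover in myotubes were all cytoskeletal. Acta2 went from 32.1% to 46.4% of its window, Myl9 from 15.1% to 27.5% and Cnn1 from 23.9% to 29.7%. At Cnn1 and Myl9 the cover inside the gene did not grow, so the added cover lay in the flanks. At Acta2 part of the added cover lay inside the gene and part in the flanks. At Cnn1 the domain over the start was 2.8 kb in myoblasts and 1.2 kb in myotubes. The start of Acta2 lay in a myoblast domain but in no myotube domain. At Acta2, the domain just upstream of the start in myotubes had a fold over control of 4.28 in the authors' list, above 91.1% of domains. A long domain over Dlgap4, 23.2 kb in myoblasts and 24.0 kb in myotubes, touched the Myl9 window only with its edge. Cnn2 had less cover in myotubes, with 48.5% and 35.9%, and Tagln nearly the same, with 31.6% and 30.7%.

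All 4 secreted or YAP-linked members had less cover in myotubes. Ctgf went from 33.5% to 26.2%, Cyr61 from 47.0% to 39.4%, Thbs1 from 37.6% to 33.8% and Ankrd1 from 32.9% to 30.9%. In the authors' read counts, domains in the Ctgf window held 968 ChIP reads against 353 control reads in myoblasts and 513 against 232 in myotubes. The domains of the Cyr61 window held 1433 against 535 in myoblasts and 855 against 301 in myotubes. These counts follow the depth of each library as well as the cover. The order of cover among the members was led by Cnn2 and Cyr61 in myoblasts and by Acta2 and Cyr61 in myotubes.

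**Figure D5:**
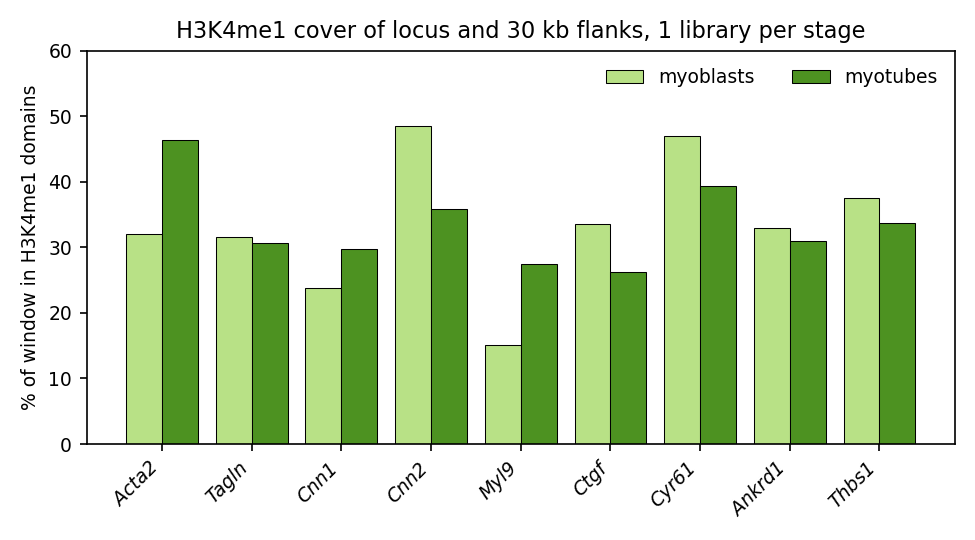
Percent of each member's window (locus plus 30 kb on each side) covered by H3K4me1 domains in myoblasts and in myotubes, 1 list per stage. Acta2, Cnn1 and Myl9 have more cover in myotubes, and the other 6 have less, Cnn2 by the widest margin (48.5% against 35.9%).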

How the data were processed

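RNA values are FPKM as deposited in the authors' 2 tables of coding sequences, summed per gene symbol, with log2 of FPKM + 1 computed here. The condition names of these tables differ from the sample labels. The treated column was taken as DRRi or pHAN_DRR1.2 because the labels tie each table to 2 samples, of which the GFP one is named. The p-values and q-values are the authors' own, per the file headers, from 1 library per condition. MyoD and MyoG lists give a score per peak, computed by the authors with MACS per the file headers. H3K4me1 lists give the authors' read counts and their fold over control (a ratio), and SICER, TopHat and mm9 are named in the submitters' processing notes. How strand, multi-mapping reads and duplicates were handled is not given in the sources used here.

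Genes were kept where their mean reached 1 FPKM. Differences of 1.5-fold (log2 0.58) and 2-fold were counted. Peaks within 30 kb of a locus counted as near, and 1 base as overlap. Of the symbols, 43 without a single locus of at most 3 Mb were left out of the peak counts, leaving 20325. Members, lists and windows were chosen with earlier results of these data known. All members are named, with up to 4 list genes per direction past 1.5-fold or an authors' q of 0.05, the 3 genes nearest each group, and the highest-scoring and nearest peaks. Promoters came from RefSeq (GRCm38.p6), and Ctgf and Cyr61 were matched by the current symbols Ccn2 and Ccn1. Alternatives were another pseudocount, filter, threshold, centring, distance and overlap. Counting was checked on simulated data (seed 7). Python 3.11.15, pandas 2.3.3, NumPy 2.4.6 and matplotlib 3.10.9 were used. The 2 ribosome-depleted RNA samples were not analysed here. The result of 1 gene list is not reported here.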

Additional observations from a re-analysis of the deposited data

How the results depend on the processing

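The counts of members past a threshold or with a peak, and the median log2 differences, kept their direction and their size within 1.5 times under the alternatives tried, except those given here. With a threshold of 2-fold, 2 members in place of 6 passed upward in DRRi. The number of myotube MyoD peaks near members that overlapped no myoblast peak was 17 within 30 kb, 9 within 10 kb and 57 within 100 kb. The numbers of peaks near members followed the window and the score filter: myoblast MyoD peaks went from 17 to 41 within 100 kb and 11 at or above the list's median score, myotube MyoD peaks from 30 to 88 within 100 kb and 20 within 10 kb, and MyoG peaks from 38 to 90 within 100 kb, 23 within 10 kb and 24 above the median score. The H3K4me1 lists held 64 domains in myoblasts and 65 in myotubes within 30 kb, 39 and 33 within 10 kb, 154 and 165 within 100 kb, and 27 and 35 at or above the median fold. Centring on the median gene lowered the log2 difference of Cyr61 in DRRi to 0.57, under the 1.5-fold line, so that 5 members passed. Of the comparisons of single genes, 53 stayed on the same side of that line. No paired analysis was possible because each group held 1 library, and for the same reason no library could be left out. A filter at a mean of 5 FPKM removed Cnn1 from the DRRi comparison and left 5 of 8 members higher. Depth is unknown for FPKM, so no counting error can be given for low genes such as Cnn1.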
